A study of Mus musculus with 12 samples.

Results

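The genes described here are 37 that act when a cell divides: the mitotic cyclins and their kinase, the spindle checkpoint, the kinetochore, the motors and other proteins of the spindle, and the machinery of cytokinesis. They were taken as a list of G2/M, spindle and kinetochore genes and matched by gene number to mouse symbols. All 37 were found among the 16300 genes of the deposited table, and all 37 passed the low count filter, which left 11763 genes. The lowest count of any member in any library was 329, so none of them was at the edge of detection.

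Expression was measured by RNA sequencing of poly-A RNA in NIH-3T3, an immortalised line of mouse embryonic fibroblasts. There were 4 groups of 3 libraries. TS cells received both recombinant stanniocalcin-1 (STC-1, a secreted glycoprotein hormone) at 100 ng/mL and the cytokine TGF-β1 at 10 ng/mL, TGFb1 cells received TGF-β1 alone at 10 ng/mL, STC1 cells received STC-1 alone at 100 ng/mL, and Con cells received PBS, each for 24 h. All groups are the same single cell line, and the submitters describe the 3 samples of a group as biological replicates. The labels used here name no batch or date.

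Libraries held between 16867563 and 18521810 expected counts. Levels are CPM, counts scaled to a fixed library total after TMM, a normalization for composition. Fibroblast markers (Col1a1, Col1a2, Vim, Pdgfra, Pdgfrb, Thy1 and Fn1) were all present and summed to between 16090 and 17230 CPM in TS, 16310 and 16730 CPM in TGFb1, 16740 and 17450 CPM in STC1 and 17420 and 18620 CPM in Con libraries. Macrophage markers summed to at most 10.5 CPM, epithelial markers (3 of 5 listed in the table) to at most 0.906 CPM, endothelial markers to at most 0.679 CPM and adipocyte markers, mostly Lpl, to at most 35.9 CPM in a library. The fibroblast sum was highest in Con, and its part in the results was not tested.

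In textbook accounts, cyclin B bound to CDK1 drives entry into mitosis, Aurora and Polo-like kinases build the spindle, and kinetochores tie chromosomes to its microtubules. The spindle checkpoint holds back the anaphase-promoting complex until every kinetochore is attached; CDC20 then activates that complex, which marks securin and cyclin B for destruction. Transcripts of these genes build up in G2 and M under the MuvB complexes, which repress them in resting cells as DREAM and activate them with MYBL2 and FOXM1 in cycling cells. TGF-β1 is best known as an inhibitor of proliferation in epithelial cells, while in fibroblasts its effect on division varies with the setting.

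The shared promoter elements of such genes are the CHR (cell cycle genes homology region), which the MuvB complexes bind, and the CCAAT box, which NF-Y binds. Promoter windows of 300 bases, from 250 before to 50 after the annotated start, were available in RefSeq (build GRCm38.p6) for 30 of the 37 genes, without Ccna2, Cdc25c, Foxm1, Aurkb, Incenp, Tpx2 and Kif20a. The CHR was searched as TTTGAA on either strand (it reads TTCAAA on the other) and as the palindrome TTCGAA. The CCAAT box was searched as CCAAT on either strand (it reads ATTGG on the other). Matches of both motifs were counted even where they shared a base. A single window per gene was used, the one with the lowest start coordinate where a gene had several. A CHR match stood in 23 of the 30 windows (76.7%), against 14.7% of 12787 protein-coding genes of the table, and a CCAAT match in 22 of the 30 (73.3%), against 39.2%. Both were present in 20 of the 30 (66.7%), against 6.30%. These are matches of letters, not measured binding. The windows of 4 genes whose values are given by library below and that hold a CHR match are shown with both motifs in capitals, since Cenpf, Prc1 and Anln are among the genes with the smallest p for TGF-β1 and Mki67 is a standard marker of cycling cells. Cenpf lies at chr1:189688037-189688336, minus strand, Prc1 at chr7:80294201-80294500, plus strand, Anln at chr9:22389157-22389456, minus strand and Mki67 at chr7:135716330-135716629, minus strand.
Cenpf: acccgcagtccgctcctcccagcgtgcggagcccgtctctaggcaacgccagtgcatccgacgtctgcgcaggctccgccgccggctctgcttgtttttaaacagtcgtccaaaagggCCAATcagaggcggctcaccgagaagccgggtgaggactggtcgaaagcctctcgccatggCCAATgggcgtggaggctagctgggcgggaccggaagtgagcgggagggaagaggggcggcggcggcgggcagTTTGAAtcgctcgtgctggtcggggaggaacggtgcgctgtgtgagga
Prc1: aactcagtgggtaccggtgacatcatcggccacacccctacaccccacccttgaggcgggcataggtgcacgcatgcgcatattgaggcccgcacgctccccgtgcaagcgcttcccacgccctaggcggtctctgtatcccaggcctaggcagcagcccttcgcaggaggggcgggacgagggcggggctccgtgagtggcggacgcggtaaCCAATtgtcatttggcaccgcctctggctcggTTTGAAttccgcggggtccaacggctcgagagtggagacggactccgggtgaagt
Anln: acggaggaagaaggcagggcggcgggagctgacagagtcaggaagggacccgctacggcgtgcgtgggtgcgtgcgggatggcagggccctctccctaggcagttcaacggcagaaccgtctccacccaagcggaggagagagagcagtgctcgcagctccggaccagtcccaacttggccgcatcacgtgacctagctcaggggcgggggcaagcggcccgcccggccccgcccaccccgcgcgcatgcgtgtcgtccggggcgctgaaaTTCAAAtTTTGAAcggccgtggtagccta
Mki67: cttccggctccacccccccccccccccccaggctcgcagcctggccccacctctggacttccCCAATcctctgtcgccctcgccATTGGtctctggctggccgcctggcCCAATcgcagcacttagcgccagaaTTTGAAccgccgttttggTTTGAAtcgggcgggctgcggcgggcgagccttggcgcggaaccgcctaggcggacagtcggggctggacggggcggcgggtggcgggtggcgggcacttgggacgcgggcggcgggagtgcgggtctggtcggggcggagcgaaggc

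In these windows Cenpf held 1 CHR and 2 CCAAT matches, Prc1 held 1 of each, Anln held 2 CHR matches and no CCAAT match, and Mki67 held 2 CHR and 3 CCAAT matches. The window of Ccnb1 held CCAAT matches and no CHR match. Those of Mad2l1, Birc5 and Pttg1, also given by library below, held neither motif. This says only that these letters are not in these windows.

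Mitotic genes were well expressed in all 4 groups. Together the 37 genes took between 0.606% and 0.615% of the counts in TS libraries, 0.621% and 0.630% in TGFb1 libraries, 0.604% and 0.618% in STC1 libraries and 0.595% and 0.612% in Con libraries. Their summed level was 6146 ± 56.0 CPM in TS, 6258 ± 59.2 CPM in TGFb1, 6120 ± 79.0 CPM in STC1 and 6011 ± 84.1 CPM in Con (SD, n = 3 each). The 3 TGFb1 libraries lay above all the others in this share. In bulk RNA, a different share of cells in G2 and M and a different amount of these transcripts per cell cannot be told apart.

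Per kilobase of the longest annotated coding transcript, Top2a, the topoisomerase that untangles sister chromatids, had the highest level, at 151.8 CPM per kb. It was followed by Ccna2 (cyclin A2) at 104.2 CPM per kb, Prc1 (the microtubule bundler of the central spindle) at 99.8 CPM per kb and Cdc20 at 91.3 CPM per kb. The lowest levels were those of Espl1, the separase that cuts cohesin, at 12.5 CPM per kb, Ccnb2 (cyclin B2) at 13.7 CPM per kb, Ttk (the checkpoint kinase MPS1) at 14.0 CPM per kb and Cdc25c, a phosphatase that activates CDK1, at 14.7 CPM per kb. The median over the 37 was 43.2 CPM per kb. The order rests on the transcript chosen for the length, which was not measured here; for Mad2l1 that transcript has 7557 bases.

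The levels barely varied between the groups. For 36 of the 37 genes the highest group mean was within 1.1-fold of the lowest, with a median ratio of 1.052. The ratio ran from 1.018 for Cdc20 to 1.123 for Ccnb2, the least counted member (367 counts on average). Across single libraries the highest over the lowest value had a median ratio of 1.106. Within groups the SD was between 0.025 for Nuf2 and 0.069 for Cenpa on the log2 scale, with a median of 0.039. The group mean was highest in TGFb1 for 22 genes, in TS for 8, in STC1 for 3 and in Con for 4, and it was lowest in Con for 21, in STC1 for 10, in TS for 6 and in TGFb1 for none.

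**Figure D1:**
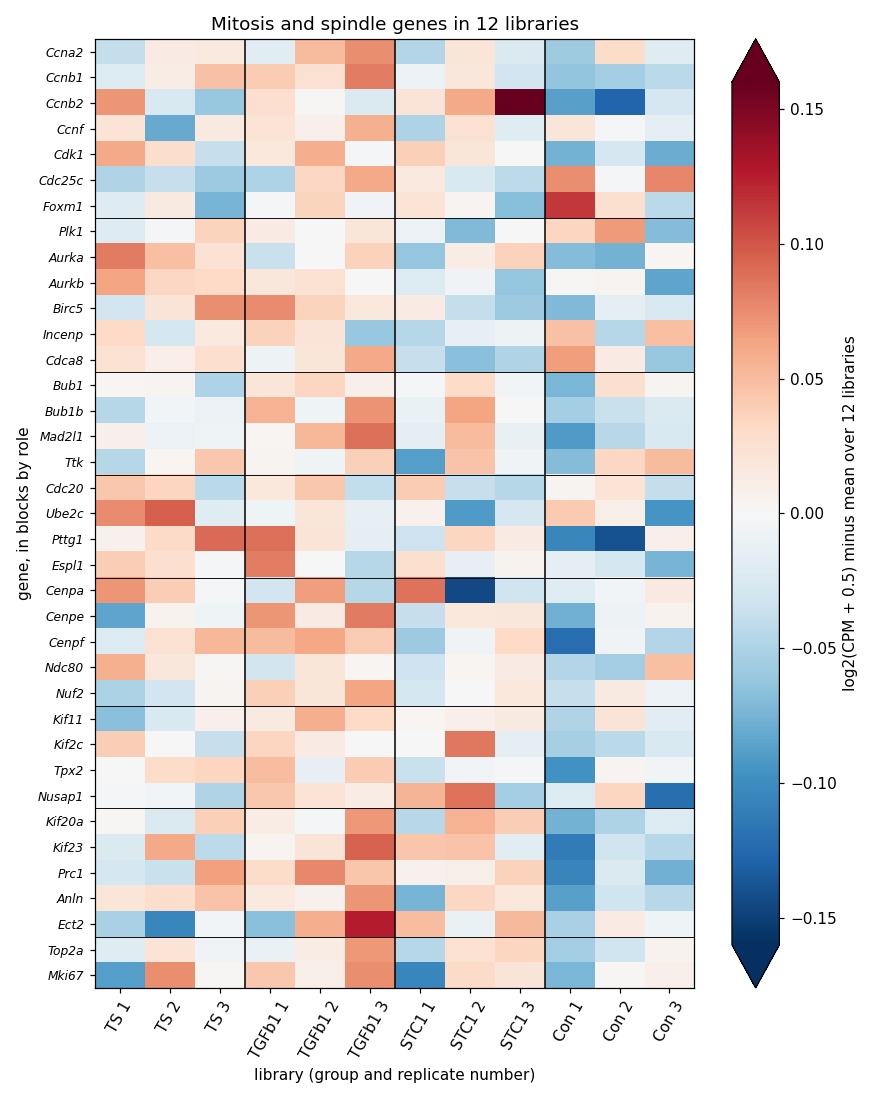
Heat map of the 37 genes (rows, in blocks by role) in 12 libraries (columns), coloured by log2(CPM + 0.5) minus the gene's mean over the 12 libraries, with red above and blue below that mean. Con replicate 1 is mostly blue, with 28 of 37 genes below their mean, and TGFb1 libraries are mostly red, with 10, 6 and 10 genes below in replicates 1, 2 and 3.

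Whether TGF-β1 altered division genes was addressed first by TGFb1 against Con. Of the 37 genes 4 rose and none fell by the edgeR test at an adjusted p under 0.05: Prc1, Cenpf, Ccnb1 (cyclin B1) and Mad2l1 (a checkpoint protein). Each was higher by less than 1.1-fold. Over all genes tested 3.99% were called and 1.90% rose. The median log2 fold change of the 37 was 0.052, against -0.0022 for all genes, and 33 of the 37 values were positive. Without adjustment, 12 genes passed p under 0.05, all higher in TGFb1, against 17.7% of all genes in either direction. In 15 genes every TGFb1 library lay above every Con library, which held for 10.4% of all genes.

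Prc1 stood at 307.9, 318.4 and 311.2 CPM in TGFb1 libraries, against 280.4, 296.9 and 286.1 CPM in Con libraries. The groups did not overlap, and Con replicate 1 was lowest. The log2 fold change was 0.12 (SE 0.0288, adjusted p = 0.00827 by edgeR). Cenpf, which encodes a large protein of the outer kinetochore, stood at 213.7, 215.3 and 212.3 CPM in TGFb1 libraries, against 189.5, 205.5 and 199.7 CPM in Con libraries. The TGFb1 libraries lay close together, and Con replicate 1 was again lowest. The log2 fold change was 0.11 (SE 0.0305, adjusted p = 0.0247).

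Ccnb1, whose protein activates CDK1 and must be destroyed for mitosis to end, stood at 190.4, 188.3 and 196.0 CPM in TGFb1 libraries, against 177.2, 178.1 and 179.6 CPM in Con libraries. The Con values were within 3 CPM of each other and below all TGFb1 values. The log2 fold change was 0.10 (SE 0.0294, adjusted p = 0.0286). Mad2l1, whose protein binds and restrains CDC20 at unattached kinetochores, stood at 169.3, 175.4 and 179.6 CPM in TGFb1 libraries, against 158.7, 163.9 and 166.2 CPM in Con libraries. The groups did not overlap, with TGFb1 replicate 1 and Con replicate 3 closest. The log2 fold change was 0.10 (SE 0.0306, adjusted p = 0.0423).

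Leaving out single libraries ended calls, while the log2 fold changes of the 4 genes stayed between 0.079 and 0.14. Without Con replicate 1 none of the 4 was called, at 0.10 for Prc1, 0.079 for Cenpf, 0.10 for Ccnb1 and 0.084 for Mad2l1. There the calls over all genes were 143, against 469 with all libraries, the median of the 37 was 0.043, and 7 of the 37 passed p under 0.05 without adjustment. With TGFb1 replicate 2 left out 1 was called (Ccnb1), with TGFb1 replicate 3 left out 1 (Prc1), and with Con replicate 2 left out 2 (Cenpf and Prc1). Cenpf was also not called without TGFb1 replicate 1, nor Mad2l1 without STC1 replicate 3. With all libraries, Mad2l1 was not called by DESeq2 (adjusted p = 0.0542) or by edgeR on library sizes without TMM (adjusted p = 0.0674).

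**Figure D2:**
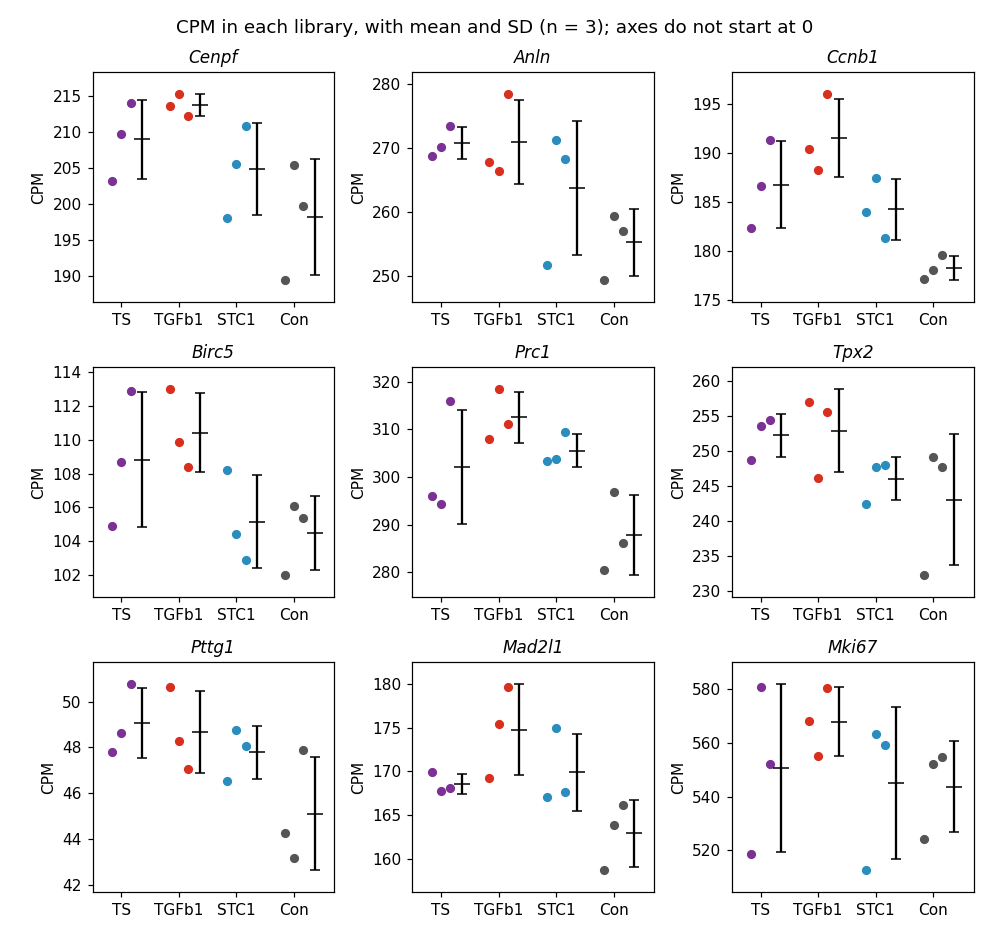
CPM of 9 genes in each library (points; replicates 1 to 3 from left to right within a group), with the mean and SD of 3 libraries beside them; the vertical axes do not start at 0. Con replicate 1 is the lowest of the 12 libraries in Cenpf, Anln, Ccnb1, Birc5, Prc1, Tpx2 and Mad2l1.

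By role, the median fold change in TGFb1 against Con was largest for the central spindle and cytokinesis. Its 5 genes had log2 fold changes between 0.057 and 0.12, with a median of 0.086. This role also had the largest median in STC1 against Con, which shares the Con libraries, at 0.067. In TS against STC1 its median was -0.017, and 1 of the 5 values was positive. Anln, which encodes the scaffold anillin of the contractile ring, stood at 267.8, 266.4 and 278.4 CPM in TGFb1 libraries, against 249.4, 259.3 and 257.0 CPM in Con libraries, without overlap. Its log2 fold change of 0.086 (SE 0.029) did not pass, with an adjusted p = 0.0760. Kif23, a motor of centralspindlin, was at 0.10 (adjusted p = 0.0988), Kif20a, a motor that brings Aurora B to the midzone, at 0.076, and Ect2, the exchange factor that activates RhoA, at 0.057, and none of them was called.

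Among cyclins and regulators of CDK1, Cdk1 was at 0.085 (adjusted p = 0.0914), Ccnb2 at 0.084 and Ccna2 at 0.052, all uncalled. Cdc25c at -0.036 and the transcription factor gene Foxm1 at -0.025 had negative values, and neither was called. Ccnf, which encodes the F-box protein cyclin F, was at 0.028. In the kinase group the range was from -0.018 for Incenp, the scaffold of the chromosomal passenger complex, to 0.080 for Birc5, which encodes survivin. Birc5 stood at 113.0, 109.9 and 108.4 CPM in TGFb1 libraries, against 102.0, 106.1 and 105.4 CPM in Con libraries, and was not called (adjusted p = 0.200). Plk1, the Polo-like kinase gene, stood at 99.7 ± 0.659 CPM in TGFb1 and 99.7 ± 4.91 CPM in Con (SD, n = 3 each), and its 95% interval ran from -0.073 to 0.070. Aurka was at 0.048, Aurkb at 0.039 and Cdca8, which encodes borealin, at 0.016.

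Of the other checkpoint genes, the kinase-related Bub1b was at 0.079 (adjusted p = 0.145), Bub1 at 0.036 and Ttk at 0.0080. Of the genes for anaphase onset, Pttg1, which encodes securin, stood at 50.6, 48.3 and 47.1 CPM in TGFb1 libraries, against 44.3, 43.2 and 47.9 CPM in Con libraries. The groups overlapped, since Con replicate 3 lay above TGFb1 replicate 3, and the log2 fold change of 0.11 was not called (adjusted p = 0.187). Espl1 was at 0.052, Ube2c, the ubiquitin-conjugating enzyme of the anaphase-promoting complex, at 0.012 and Cdc20 at 0.011. At the kinetochore, the motor gene Cenpe was at 0.083 (adjusted p = 0.128), the NDC80 complex genes Nuf2 and Ndc80 at 0.052 and 0.015, and Cenpa, the centromeric histone H3 variant, at 0.00075.

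Spindle motor and microtubule genes lay close together, between 0.051 for Kif11, the motor that separates spindle poles, and 0.061 for Nusap1, with Kif2c at 0.057. Tpx2, which encodes the activator of Aurora A, stood at 257.1, 246.2 and 255.6 CPM in TGFb1 libraries, against 232.3, 249.2 and 247.8 CPM in Con libraries. TGFb1 replicate 2 lay among the Con values, and the log2 fold change of 0.058 was not called (adjusted p = 0.283). Top2a was at 0.051 (adjusted p = 0.315). Mki67, which encodes the proliferation marker Ki-67, stood at 568.1, 554.9 and 580.4 CPM in TGFb1 libraries, against 524.2, 552.2 and 554.6 CPM in Con libraries. TGFb1 replicate 2 and Con replicate 3 nearly touched, and the log2 fold change was 0.063 (adjusted p = 0.419).

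The intervals in TGFb1 against Con were narrow. All 37 of the 95% intervals lay within 1.2-fold in either direction, from 0.904-fold for Cdc25c at the low end to 1.16-fold for Ccnb2 at the high end, and the median SE was 0.0337.

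**Figure D3:**
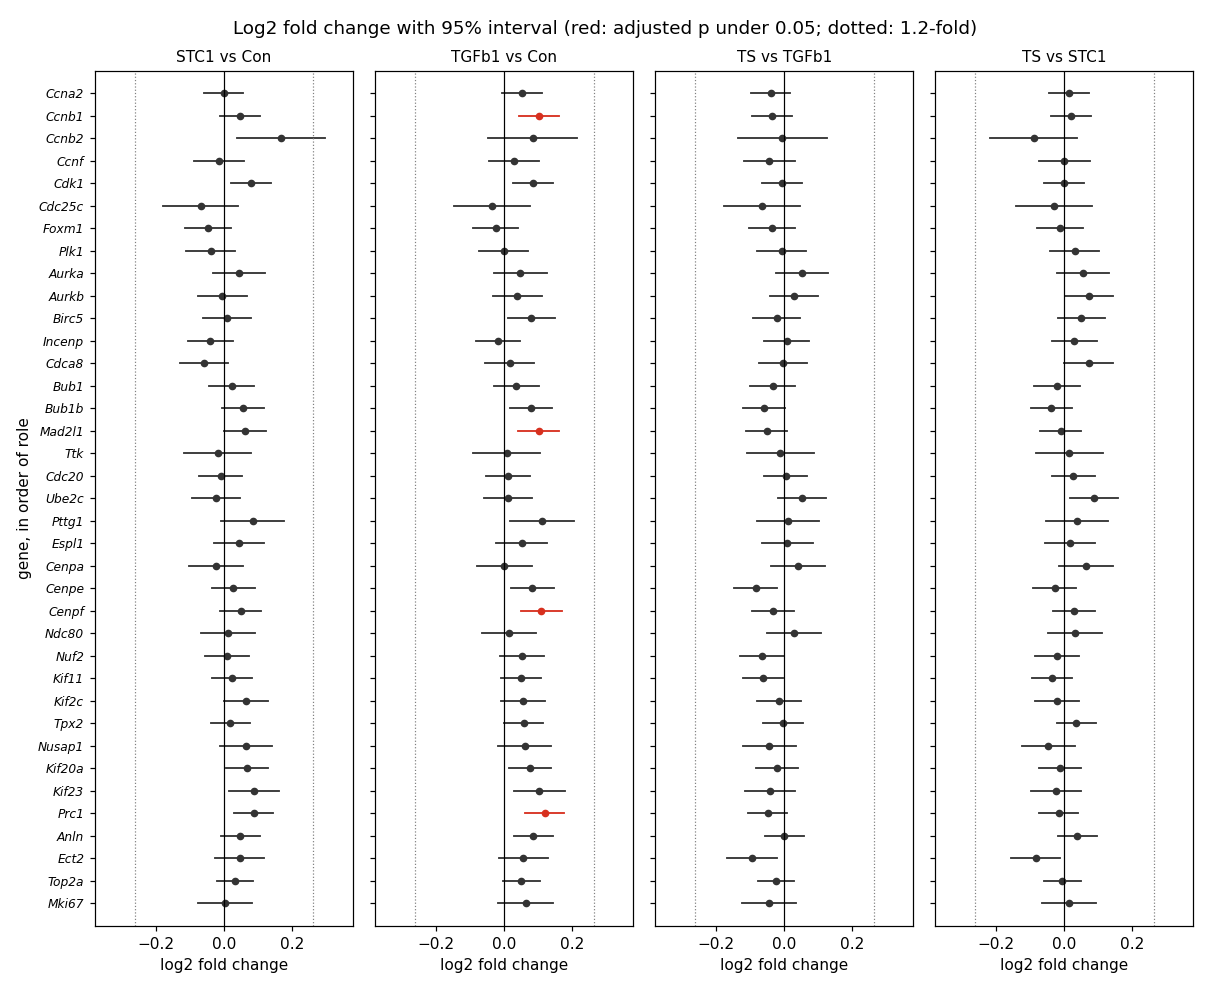
Log2 fold changes (points) with 95% intervals (lines) of the 37 genes in STC1 against Con, TGFb1 against Con, TS against TGFb1 and TS against STC1, in red where the adjusted p was under 0.05 and with dotted lines at 1.2-fold. The 4 red genes stand in TGFb1 against Con, and the interval of Ccnb2 in STC1 against Con is the only one to cross a dotted line.

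With STC-1 present on both sides, TGF-β1 gave TS against STC1, where none of the 37 genes was called by edgeR or DESeq2, with 0.298% of all genes called. The median log2 fold change was 0.014, against 0.0012 for all genes, and 20 values were positive. Without STC1 replicate 1 the median was -0.00097. Without adjustment, 3 of them passed, against 9.17% of all genes: Ube2c at 0.088, Aurkb at 0.073 and Ect2 at -0.084. That count was 1 without TS replicate 1 and 0 without TS replicate 2. Ube2c stood at 127.0 ± 5.41 CPM in TS and 119.6 ± 4.13 CPM in STC1 (SD, n = 3 each). All 37 intervals lay within 1.2-fold.

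TS against Con, which shares the Con libraries with the first comparison, also called none of the 37 with edgeR or DESeq2, although 6.06% of all genes were called. The median was 0.040, against -0.00021 for all genes. The smallest adjusted p was 0.0648 for Anln, which stood at 268.7, 270.2 and 273.5 CPM in TS libraries, all above the Con values given for it. Pttg1 had the largest value, 0.12, from 47.8, 48.6 and 50.8 CPM in TS libraries, which overlapped Con. Without adjustment 7 passed, all higher in TS, against 18.8% of all genes. In 6 genes every TS library lay above every Con library, against 10.7% of all genes, and in Cdc25c every TS library lay below them. The share of all genes with every TS library below every Con library was not counted. Cdc25c stood at 27.7 ± 0.201 CPM in TS and 29.6 ± 0.949 CPM in Con (SD, n = 3 each), and at -0.10 it was not called.

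Averaged over both backgrounds, the 6 libraries with TGF-β1 were set against the 6 without it. Cenpf rose, at 211.4 CPM with TGF-β1 and 201.6 CPM without it (log2 fold change 0.069, SE 0.0215, adjusted p = 0.0488), and it was the only member called, where 4.70% of all genes were called and 2.39% rose. The call was not made by DESeq2 or by edgeR on library sizes without TMM, and it was lost without Con replicate 1, STC1 replicate 1 or 2, any TGFb1 replicate, or TS replicate 2 or 3, with Anln called in its place without STC1 replicate 2. In those fits without 1 library the log2 fold change of Cenpf was between 0.054 and 0.071. The next smallest adjusted p were 0.0647 for Anln and 0.0724 for Ccnb1. The median of the 37 was 0.032, with 33 positive values, against -0.00039 for all genes, and 11 genes had an unadjusted p under 0.05, all higher, against 18% of all genes. Without STC1 replicate 1 the median was 0.019, and without TGFb1 replicate 2 the count without adjustment was 7. Every 95% interval lay between 0.925-fold and 1.102-fold.

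STC-1 alone moved no mitotic gene past the test. In STC1 against Con, which shares the Con libraries with both other comparisons against Con, none of the 37 was called by edgeR or DESeq2, with 0.0510% of all genes called by edgeR, and the smallest adjusted p was 0.225 for Prc1. The median log2 fold change was 0.024, against -0.0018 for all genes. An unadjusted p under 0.05 was reached by 5 genes, all higher in STC1, against 10.6% of all genes: Prc1 at 0.087, Cdk1 at 0.080, Ccnb2 at 0.17, Kif23 at 0.088 and Kif20a at 0.067. Prc1 stood at 303.3, 303.7 and 309.5 CPM in STC1 libraries, above the Con values. Cdk1 stood at 202.3 ± 2.81 CPM in STC1 and 191.5 ± 3.95 CPM in Con (SD, n = 3 each). In 9 genes every STC1 library lay above every Con library, against 7.67% of all genes. Without Con replicate 1 the median was 0.0085. The count without adjustment was 3 without Con replicate 1 or STC1 replicate 2, 10 without Con replicate 3 and 12 without STC1 replicate 1.

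Ccnb2 had the largest value of this comparison and the widest interval. It stood at 21.3, 21.9 and 23.6 CPM in STC1 libraries, against 19.7, 19.2 and 20.6 CPM in Con libraries, without overlap, and its 95% interval ran from 1.03-fold to 1.23-fold (adjusted p = 0.321). The other 36 intervals lay within 1.2-fold. Mki67 stood at 512.7, 563.2 and 559.3 CPM in STC1 libraries, where replicate 1 was below all Con libraries and the other two were above them.

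Whether STC-1 altered division genes in cells that also had TGF-β1 was the question of TS against TGFb1. By edgeR none of the 37 and 0% of all genes were called, and DESeq2 also called none of the 37. The median log2 fold change was -0.022, against 0.00070 for all genes, with 28 negative values. An unadjusted p under 0.05 was reached by 4 genes, all lower in TS, against 6.50% of all genes: Cenpe at -0.085, Ect2 at -0.095, Kif11 at -0.062 and Nuf2 at -0.066, none with an adjusted p below 0.660. That count was 0 without TGFb1 replicate 3 and 1 without TS replicate 1. Leaving out TS replicate 2 gave a count of 2 and a median of -0.014. Cenpe stood at 159.2 ± 5.29 CPM in TS and 168.8 ± 4.32 CPM in TGFb1, and Ect2 at 128.2 ± 4.52 CPM in TS and 136.9 ± 9.20 CPM in TGFb1 (SD, n = 3 each). All 37 intervals lay within 1.2-fold, between 0.885-fold and 1.09-fold. The 4 genes that rose with TGF-β1 alone stood in TS at 302.1 ± 11.96 CPM for Prc1, 209.0 ± 5.45 CPM for Cenpf, 186.8 ± 4.46 CPM for Ccnb1 and 168.6 ± 1.15 CPM for Mad2l1. Each was below its TGFb1 mean and above its Con mean, with overlap of TS with TGFb1 libraries in all of them. These genes were picked by the same TGFb1 and Con libraries, which favours a TS mean in between. Their position in TS therefore tells nothing about STC-1.

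The 6 libraries with STC-1 against the 6 without it gave none of the 37 by edgeR or DESeq2 and none at an unadjusted p under 0.05, where 0.0850% of all genes were called and 8.33% had an unadjusted p under 0.05. The median was 0.0047, or -0.0042 without Con replicate 1, and every interval lay between 0.904-fold and 1.13-fold. The interaction, the STC-1 effect with TGF-β1 minus that without it, called none of the 37 by edgeR or DESeq2 and 0% of all genes by edgeR. An unadjusted p under 0.05 was reached by 10 of the 37, all with negative values, against 8.29% of all genes, and the median was -0.049, against 0.0020 for all genes. Prc1 had the smallest adjusted p, 0.332, with a value of -0.14 (SE 0.0406). Next by p came Ect2 at -0.14 and Bub1b at -0.12. Without Con replicate 1 the count at an unadjusted p under 0.05 was 4 and the median -0.038, and without STC1 replicate 1 they were 13 and -0.078. The count was 5 without STC1 replicate 2 or TGFb1 replicate 3.

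Other genes of the division machinery, in lists that share no gene with the 37, are given for TGFb1 against Con, where 1.90% of all genes rose, 3.99% were called and 17.7% had an unadjusted p under 0.05. Of 36 other kinetochore and centromere genes 1 rose, the checkpoint gene Bub3 (0.13, SE 0.03, adjusted p = 0.0071 by edgeR), at 179.2 CPM in TGFb1 and 164.2 CPM in Con, and the median was 0.056. Of 19 condensin and cohesin genes 1 rose, Smc2, a core subunit of condensin (0.11, adjusted p = 0.0185), with a median of 0.028. Of 32 other spindle, motor and cytokinesis genes 1 rose, the augmin subunit gene Haus2 (0.19, adjusted p = 0.0396), and 1 fell, Numa1, which anchors dynein at spindle poles (-0.14, adjusted p = 0.0071), with a median of 0.034. Of 16 other mitotic kinase, phosphatase and cyclin partner genes 1 rose, the kinase gene Melk (0.16, adjusted p = 0.0307), with a median of 0.066. None of 17 genes of the anaphase-promoting complex and none of 13 genes of the DREAM and MYBL2 complexes was called by edgeR, with 2 and 1 at an unadjusted p under 0.05 and medians of 0.0020 and 0.014. Among 9 tested genes of CDK inhibitors and D cyclins none was called either, with 4 at an unadjusted p under 0.05 and a median of -0.0090.

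In TS against Con, 374 of 11763 genes rose and 339 fell. Bub3 (0.13) was the 1 rise there among 36 other kinetochore and centromere genes. Haus2 (0.19) was the 1 rise among 32 other spindle, motor and cytokinesis genes. Cks2, a small partner of CDK1 (0.16, adjusted p = 0.0228 by edgeR), was the 1 rise among 16 kinase, phosphatase and cyclin partner genes. Anapc15 (0.18) and Anapc13 (0.27) were 2 rises among 17 anaphase-promoting complex genes. Among 13 DREAM and MYBL2 complex genes 1 fell, Tfdp2, a partner of E2F factors (-0.21, adjusted p = 0.0478 by edgeR). None of 19 condensin and cohesin genes was called. Cdkn1b, which encodes the inhibitor p27, fell in TS against STC1 (-0.16, adjusted p = 0.0373 by edgeR) and in TS against Con (-0.17, adjusted p = 0.00318). It stood at 65.1 CPM in TS, 70.6 CPM in TGFb1, 73.0 CPM in STC1 and 73.5 CPM in Con. No other of the 9 tested genes in its list was called in either comparison, where 0.298% and 6.06% of all genes were called. Over both backgrounds Cdkn1b fell (-0.11, adjusted p = 0.00976 by edgeR) and Ccnd1 rose (0.070, adjusted p = 0.0362), where 4.70% of all genes were called. Replication genes, the S-phase counterpart, held 4 rises among 33 in TGFb1 against Con (Cdc6, Mcm3, Mcm7 and Mcm2; median 0.083), where 1.90% of all genes rose. In TS against Con 8 of the 33 rose (median 0.054), where 374 of 11763 genes rose and 6.06% of all genes were called in either direction. The difference between these lists and the 37 was not tested.

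By library, the median deviation of the 37 genes from their mean over 12 libraries was 0.00090, 0.012 and 0.0021 in TS, 0.017, 0.020 and 0.038 in TGFb1, -0.011, 0.012 and -0.0031 in STC1, and -0.055, -0.0057 and -0.023 in Con. Con replicate 1 stood lowest, and the replication genes were lowest there too, at -0.080. The median over all genes tested stayed between -0.0004 and 0.0041 in every library. Fold changes in TGFb1 against Con had a Spearman correlation of -0.193 with transcript length and -0.156 with GC content across 11369 genes, which are not independent replicates. The 37 genes had a median length of 3334 bases, against 3184 for those genes, and a median GC content of 47.3%, against 49.9%. With a trend in both removed, the median of the 37 was 0.057, against 0.0070 for all genes, and 6 genes rose: Prc1, Cenpf, Mad2l1, Cdk1, Cenpe and Anln. Ccnb1 was not called in that fit, at 0.083 (adjusted p = 0.0746 by edgeR). Across the 8 comparisons the correlation with length ran from -0.32 in TS against Con to 0.014 in the interaction. It was -0.262 for TGF-β1 over both backgrounds. The correlation with GC content was strongest in the interaction, at 0.282. With the trend removed, the interaction had a median of -0.043 over the 37, against -0.0078 for all genes, and 9 of the 37 had an unadjusted p under 0.05.

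**Figure D4:**
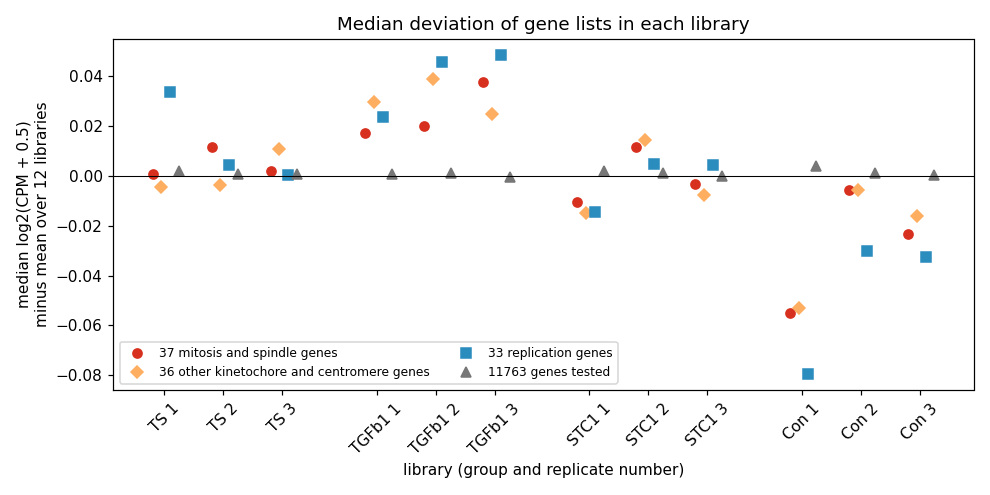
Median deviation of log2(CPM + 0.5) from the mean over 12 libraries, by library, for the 37 genes (circles), 36 other kinetochore and centromere genes (diamonds), 33 replication genes (squares) and 11763 genes tested (triangles). Con replicate 1 lies lowest for the first 3 lists, at -0.055, -0.053 and -0.080, and the triangles stay near 0.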

How the data were processed

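The authors deposited expected counts for 16300 genes, unscaled between samples. These are estimates, as fractional values occur; between 88.5% and 89.1% of a library's values were whole within 1e-06. Per the submitters' processing notes, the genome build was GRCm39. TRIzol extraction and MGIEasy poly-A libraries are given in the labels' protocols. The aligner, the counting program and the use of strand are not given in the sources used here. Whether reads of overlapping genes on opposite strands were told apart is therefore not known. Gene symbols and promoter windows came from RefSeq tables of build GRCm38.p6, and transcript lengths from the longest coding transcript of GENCODE on GRCm38, whose build differs from the authors', so no positions of measured features are given. Symbols were found for 16177 genes.

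Counts were rounded, filtered with filterByExpr (11763 genes), scaled by TMM and compared in edgeR 4.0.16 (R 4.3.3) by its robust quasi-likelihood test, with 1 mean per group, 12 libraries and 8 residual degrees of freedom. In each of 8 comparisons the two-sided p-values had a Benjamini-Hochberg adjustment over all tested genes. Calls needed an adjusted p under 0.05. Intervals are at 95% and use the moderated spread. The p-values measure the spread between these libraries, whose median biological coefficient of variation was 2.24% (2.04% for the 37 genes). No library was a duplicate of another in its group: over 12 replicate pairs the chi-square divided by its degrees of freedom was 1.46 to 2.445, above the 1 of sampling noise. The fit was tested on simulated data. Values are given by library for genes called in any comparison and for the gene with the smallest p for TGF-β1 over both backgrounds in each of 8 roles; Ccnb2 in STC1 and Con was added after its values were seen. The members, lists and alternatives were chosen with earlier results of these data known. Other settings were DESeq2 1.42.0, other scalings and filters, only the compared groups, the replicate number as a block, each library left out, and, added after seeing the data, a length and GC trend removed.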

Additional observations from a re-analysis of the deposited data

How the results depend on the processing

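The count of 4 genes called in TGFb1 against Con was between 3 and 6 under each alternative that kept all 12 libraries or only the compared groups, and ran from 0 to 4 when each library was left out in turn. For TGF-β1 over both backgrounds, the count of 1 became 0 with DESeq2, 0 on library sizes without TMM, 3 with a length and GC trend removed (an alternative chosen after seeing the data) and 3 under the replicate block, and ran from 0 to 1 with a library left out. For TS against Con, the count of 0 became 3 with the length and GC trend removed and 1 with the replicate block (Anln), and ran from 0 to 1 with a library left out. In the other 5 comparisons no alternative called any of the 37 genes. The cause of these differences was not tested. No fold change of the 9 genes given by library changed sign in TGFb1 against Con or over both backgrounds. Deviations of same-numbered libraries of different groups had correlations between -0.024 and 0.245, with 7 of 18 pairs above 0.1. Pairs of libraries with different numbers ran from -0.211 to 0.144. Of the 12 libraries, 5 correlated best with their own number in every other group. The main fit did not use the numbers as pairs, and whether they mark paired libraries was not tested. Under the replicate block, 6 of the 37 genes were called in TGFb1 against Con. With 3 libraries a group, shifts of a few percent lie near the SE of a single gene.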

Other observations

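Replicate 1 of STC1 and Con had most of the mitotic genes below the mean of its group, and replicates 2 and 3 did not. In TGFb1 this held for replicates 1 and 2, and in TS it hardly held for any replicate. The numbers were not used to pair the libraries. Of the 37 genes, 19 lay below the group mean in TS replicate 1, 23 in TGFb1 replicate 1, 23 in STC1 replicate 1 and 26 in Con replicate 1, against 49.3%, 49.7%, 49.2% and 47.9% of all genes tested. In replicates 2 and 3 the counts were 18 and 17 in TS and 21 and 17 in TGFb1. They were 12 and 17 in STC1, and 13 in each in Con. In the 19 members with the longer transcripts the median deviation from the group mean in replicate 1 was -0.011 in TS, -0.0072 in TGFb1, -0.021 in STC1 and -0.033 in Con on the log2 scale. In the 18 shorter members it was 0.012 in TS, -0.0069 in TGFb1, -0.017 in STC1 and -0.011 in Con. In TGFb1 the longer members were lower in replicate 2, at -0.012, than in replicate 1. A dependence on transcript length was not tested. In the same libraries, 3263 other genes with a mean log2 CPM over 5, and transcripts at least as long as the members' median, had medians of -0.0080, -0.0060, -0.0045 and 0.0036. Mki67 had the largest biological coefficient of variation among the 37, 3.26%, and replicate 1 was its lowest library in TS (518.8 CPM), STC1 (512.7 CPM) and Con (524.2 CPM), but not in TGFb1 (568.1 CPM).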
